A study of Mus musculus with 8 samples.

Results

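Ly6C-high classical monocytes from the bone marrow of mice with an Irf2 knockout (Irf2 KO) were compared with the same cells from wild-type mice. Members of the comparison were the genes whose log2 CPM averaged at least 0 over all 8 libraries of the series, which left 12752 of 13744 genes. CPM is a gene's read count per 1e+06 of its library's scaled total, so the limit is 1 CPM. The total implied by the deposited values was 57984500 in wild type replicate 1, which had 59063694 gene-assigned reads. The deposited values thus already carry a scaling of the library totals. The series holds 4 genotypes with 2 libraries each. They are wild type, Irf2 KO, a conditional Bcl6 knockout (Bcl6 cKO) and an Nr4a1 knockout (Nr4a1 KO), and its title names nonclassical monocyte development as the subject. The sources used here do not give the knockout alleles, the Cre line of Bcl6 cKO, strain, age or sex, and they name no treatment. Nothing in the labels ties replicates to separate mice, so the p-values reflect only how far these samples lay apart, which may be technical.

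Irf2 encodes interferon regulatory factor 2, a DNA-binding protein that shares its target motif with the activator Irf1. It is known as a brake on interferon-stimulated genes and also as an activator of some genes, among them Gsdmd. Classical monocytes leave the bone marrow to become macrophages and dendritic cells in tissues, and some turn into nonclassical (Ly6C-low) monocytes, which patrol the vessel wall. Nr4a1, a nuclear receptor, is required for nonclassical monocytes.

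Depth ran from 46617756 to 62633123 gene-assigned reads, 1 CPM stood for 47.9 to 61.8 reads, and mitochondrial transcripts took 0.569% to 0.778% of reads. Replicates of a genotype correlated across genes with r between 0.971 and 0.989. Changes are log2 fold changes ± SE from limma, n = 2 libraries per genotype, with Benjamini-Hochberg adjustment over the 12752 genes, and a gene was called at an adjusted p under 0.05. Where pairs of levels are given, replicate 1 comes first and the unit is log2 CPM. The cells carried monocyte markers. Ly6c2, the gene behind the sorting marker, stood at 11.87 and 12.22 in wild type and 12.29 and 12.61 in Irf2 KO (adjusted p = 0.278). Ccr2, the receptor for exit from the marrow, stood at 10.34 and 10.07 in wild type and 9.83 and 10.12 in Irf2 KO (adjusted p = 0.236). Neither gene was called.

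In Irf2 KO 2755 genes were called against wild type, or 21.6% of those tested. Of these 1181 were higher (9.26% of tested genes) and 1574 lower (12.3%), with a median fold of 1.68 among the calls. Larger changes were mostly falls, since 532 genes fell and 267 rose by over 2-fold. The share of rises among calls, 42.9%, depended on the scaling between libraries and came to 53.7% with quantile normalization, 55.0% once GC content and transcript length were corrected for and 59.3% with each library centred on its median. Median centring moved all log2 fold changes up by 0.10. Between 1076 and 1522 genes were called when 1 of the 4 wild type and Irf2 KO libraries was left out. The calls of 683 genes held whichever of the 8 libraries was left out, and 444 of them were falls.

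**Figure D1:**
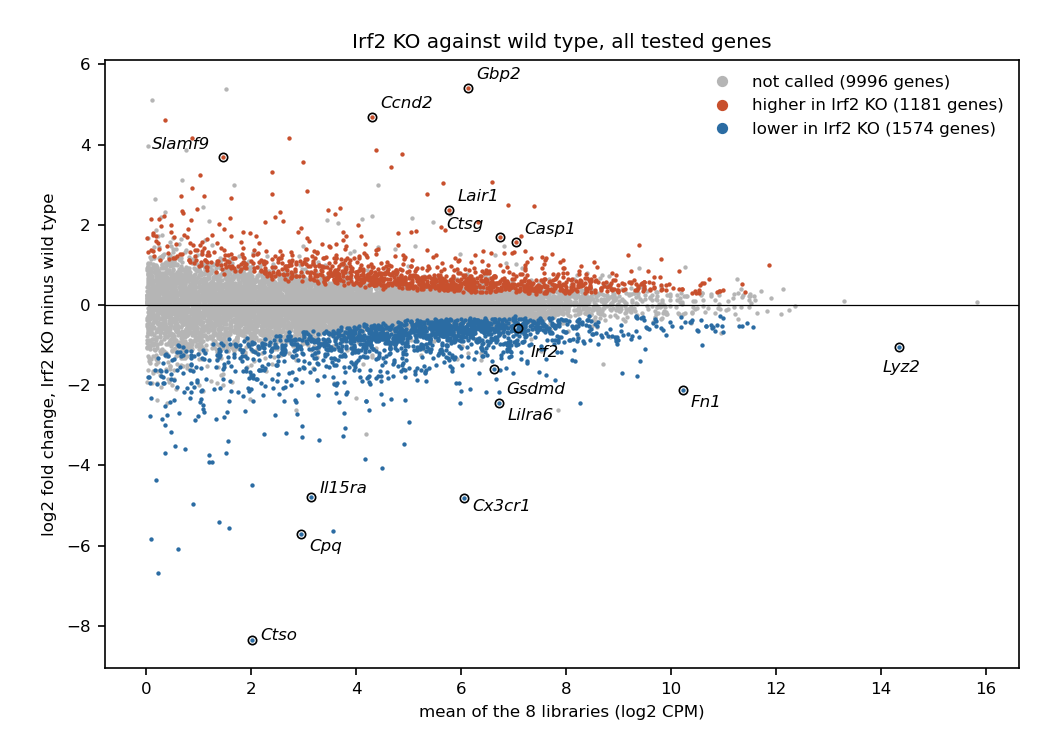
Log2 fold change of Irf2 KO against wild type (y axis) over the mean of the 8 libraries in log2 CPM (x axis) for the 12752 tested genes, with the 1181 genes called higher in orange, the 1574 called lower in blue and the rest in grey. The falls reach further from 0 than the rises, and the circled genes are among those described in the text.

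The Irf2 gene itself (ENSMUSG00000031627, GRCm38 chromosome 8, 46739732 to 46847458) stood at 7.18 and 7.14 in wild type and 6.5 and 6.69 in Irf2 KO, a difference of -0.56 ± 0.14, adjusted p = 0.0222. Both Irf2 KO libraries lay below both wild type libraries, as they did for 4559 of all 12752 tested genes. The table gives 1 value per gene, and the sources used here do not say which exons the knockout removes, so this level does not check the label. Irf2 was no longer called with any 1 of the 4 compared libraries omitted (largest adjusted p 0.121) or without a trend of the prior variance (adjusted p = 0.0633).

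Genes beside Irf2 on chromosome 8 included some of the clearest falls. Cyp4v3 (GRCm38 chromosome 8, 45304944 to 45333216), a fatty acid hydroxylase, stood at 3.69 and 4.27 in wild type and 1.08 and 0.15 in Irf2 KO. Stox2 (chromosome 8, 47180048 to 47446362) stood at 2.13 and 2.08 in wild type and -0.33 and -1.16 in Irf2 KO, and Acsl1 (chromosome 8, 46471037 to 46536051), which joins long-chain fatty acids to coenzyme A, at 6.04 and 5.89 in wild type and 4.99 and 4.7 in Irf2 KO. The groups did not overlap for any of the 3 genes, which was so for all 2755 called genes. The differences were -3.37 ± 0.32, adjusted p = 0.00115 for Cyp4v3, -2.85 ± 0.41, adjusted p = 0.00339 for Stox2 and -1.12 ± 0.18, adjusted p = 0.00529 for Acsl1, and none of these calls ended when 1 library was left out. Each was also lower than in Nr4a1 KO and in Bcl6 cKO, with Cyp4v3 at 4.39 and 4.7 in Nr4a1 KO and 3.89 and 4.17 in Bcl6 cKO. Among the 21 genes tested within 2 megabases of Irf2, 28.6% were called (2 higher and 4 lower), beside 21.6% of all tested genes. The other 3 of these 6 calls, Primpol (lower) and Slc25a4 and Gm8623 (higher), were lost with any of 4 or 5 single libraries omitted, with a largest adjusted p of 0.232, 0.146 and 0.137. Within 10 megabases of Irf2 31.7% of 41 tested genes were called (4 higher and 9 lower). They include Hpgd, described below, which lies 9447127 bases away. Within 20 megabases 23.3% of 90 were called. Whether these changes follow from the altered locus or from the loss of the protein was not tested.

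Among the largest falls were genes that nearly vanished in Irf2 KO. Ctso, a lysosomal cysteine protease, had 953 and 1034 reads in wild type and 0 and 16 in Irf2 KO (-8.35 ± 1.2, adjusted p = 0.0035). Cpq, a secreted and lysosomal peptidase (chromosome 15, 33083129 to 33594552), fell from 4.29 and 4.33 to -1.39 and -1.41 (-5.71 ± 0.28, adjusted p = 0.000149). C1ra, the complement protease C1r, had 408 and 348 reads in wild type and 12 and 4 in Irf2 KO (-5.57 ± 0.49, adjusted p = 0.00104). Il15ra, which presents interleukin 15 on the monocyte surface (chromosome 2, 11705290 to 11734317), fell from 4.11 and 4.21 to -1.74 and 0.49 (-4.79 ± 0.57, adjusted p = 0.00203). These 4 genes stood near the wild type level in the other knockouts, for instance Cpq at 3.98 and 4.87 in Nr4a1 KO and 4.37 and 4.51 in Bcl6 cKO. The direct differences between the knockouts were -5.82 ± 0.28, adjusted p = 2.51e-05, against Nr4a1 KO and -5.84 ± 0.28, adjusted p = 0.000123, against Bcl6 cKO.

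Further falls touched lipid mediators and adhesion. Hpgd, which inactivates prostaglandins, fell from 5.35 and 6.2 to 2.36 and 1.06 (-4.07 ± 0.41, adjusted p = 0.00131). Thbs1, the matrix protein thrombospondin 1, fell from 4.94 and 4.06 to 0.66 and 0.66 (-3.84 ± 0.53, adjusted p = 0.00304), and Ncam1, a cell adhesion molecule, from 6.15 and 5.61 to 2.87 and 1.96 (-3.47 ± 0.29, adjusted p = 0.00104). Plaat3, a phospholipid acyltransferase, fell from 2.68 and 3.03 to -1.55 and -1.73 (-4.5 ± 0.79, adjusted p = 0.00683), but was not called by voom on the recovered reads or in the authors' deposited table (adjusted p = 0.0980 there). Apoe, the lipid carrier, fell from 5.56 and 5.06 to 1.75 and 2.34 (-3.26 ± 0.5, adjusted p = 0.00432) and was as low in Bcl6 cKO, at 1.72 and 2.43. There the 95% interval of the difference between the knockouts ran from -1.16 to 1.11 on the log2 scale. Cd209a, a lectin of monocyte-derived dendritic cells, was uneven, at 5.18 and 5.5 in wild type and 2.46 and -3.07 in Irf2 KO, and omitting either wild type library (largest adjusted p 0.0978) or the variance trend (0.0597) removed its call.

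The rises were led by interferon-linked genes, described below, and by Ccnd2. Ccnd2 encodes cyclin D2, which drives cells from G1 into S phase (chromosome 6, 127125162 to 127152193), and rose from 3.02 and 3.06 to 7.93 and 7.54 (4.7 ± 0.48, adjusted p = 0.00135), or 25.9-fold. It stood at 3.7 and 3.4 in Bcl6 cKO and 1.97 and 3.83 in Nr4a1 KO, so that both Irf2 KO libraries lay above the other 6 libraries. C1qtnf6, a secreted C1q-like protein, rose from 0.51 and 1.03 to 4.24 and 3.95 (3.33 ± 0.26, adjusted p = 0.00104). Shtn1, known from neurons, rose from 2.22 and 1.34 to 5.45 and 5.86 (3.88 ± 0.37, adjusted p = 0.00115) and was as high in Bcl6 cKO at 5.59 and 5.74 (95% interval of the difference -0.85 to 0.83). Ms4a3, which marks granulocyte and monocyte progenitors, rose from 3.96 and 4.26 to 6.18 and 7.55 (2.76 ± 0.41, adjusted p = 0.00387), and Rnase2a, a secreted ribonuclease, from 0.84 and 1.09 to 4.17 and 3.31 (2.78 ± 0.42, adjusted p = 0.00423). Slamf9, an orphan receptor of the SLAM family, rose from 0.96 and 0.09 to 4.21 and 4.22 (3.69 ± 0.32, adjusted p = 0.00104) and was higher than in either other knockout (2.84 ± 0.32, adjusted p = 0.000588, against Nr4a1 KO and 4.49 ± 0.32, adjusted p = 0.000672, against Bcl6 cKO). None of these 6 calls ended with any single library left out.

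**Figure D2:**
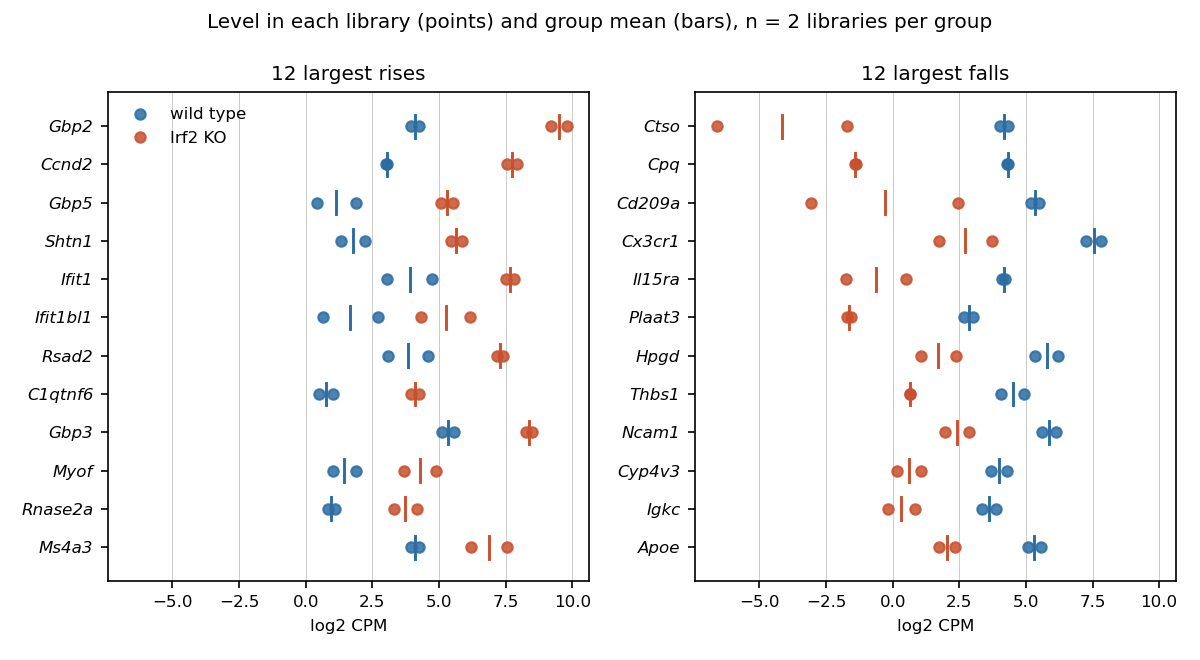
Level of the 12 genes with the largest rises (left) and the 12 with the largest falls (right) in Irf2 KO, in log2 CPM (x axis). Points are the 2 wild type libraries (blue) and the 2 Irf2 KO libraries (orange), bars are group means, and the groups do not overlap for any of these genes because non-overlap was part of the rule that chose them.

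Paired inhibitory and activating receptors of myeloid cells were the list with the highest share of calls among the lists with at least 10 tested genes. These surface proteins (the PILR, Siglec, CD300, LILR and SIRP families) set the threshold of cell activation, the inhibitory members through ITIM motifs that bind phosphatases and their activating partners through ITAM adaptors. Of 23 tested genes 17 fell and 1 rose, against 12.3% lower and 9.26% higher among all tested genes, and the median log2 fold change was -1.16 against -0.04 over all tested genes. The number of falls was 14 to 15 when 1 of the 4 compared libraries was left out. In 17 of the 23 genes both Irf2 KO libraries lay below all 6 other libraries, which was so for 15.7% of all tested genes. Against Nr4a1 KO directly 20 of the 23 were lower and 1 higher (22.3% of all genes were called in that comparison), and against Bcl6 cKO 16 were called (9.55% of all genes).

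Lilra6, an activating receptor of the LILR family (chromosome 7, 3908280 to 3915503), fell from 7.58 and 7.8 to 5.74 and 4.73 (-2.45 ± 0.27, adjusted p = 0.00153). Pira2, an activating paired immunoglobulin-like receptor, fell from 6.23 and 6.34 to 5.04 and 4.68 (-1.42 ± 0.14, adjusted p = 0.00118), and Lilrb4a, an inhibitory member on chromosome 10, from 6.32 and 6.26 to 5.08 and 4.91 (-1.29 ± 0.14, adjusted p = 0.00153). Both activating and inhibitory members were thus among the falls. Cd300a, an inhibitory receptor for phosphatidylserine on chromosome 11, fell from 8.16 and 8.3 to 7.11 and 7.01 (-1.17 ± 0.13, adjusted p = 0.00163), and Sirpa, the receptor for the don't-eat-me ligand Cd47, fell from 7.9 and 7.86 to 6.65 and 6.9 (-1.1 ± 0.13, adjusted p = 0.00219). Cd33 and Siglecg, sialic acid-binding receptors named here after their values were seen, fell from 4.43 and 4.43 to 1.69 and 2.35 and from 5.32 and 5.55 to 3.8 and 2.64. Lair1, an inhibitory collagen receptor that neighbours the LILR genes on chromosome 7, was the 1 rise, from 4.9 and 5.04 to 7.09 and 7.6 (2.37 ± 0.23, adjusted p = 0.00115), and was above Nr4a1 KO (1.64 ± 0.23, adjusted p = 0.00166) and Bcl6 cKO (2.27 ± 0.23, adjusted p = 0.00207) too. Pilra, the paired receptor of the PILR family, was called lower at -0.53 ± 0.13, adjusted p = 0.0263, but it was no longer called when wild type replicate 1 or any Bcl6 cKO or Irf2 KO library was omitted (largest adjusted p 0.136), nor under 4 other settings. LILR and PIR genes are near-identical neighbours, and the sources used here do not say how reads were shared among them, so single members are less certain than the group.

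**Figure D3:**
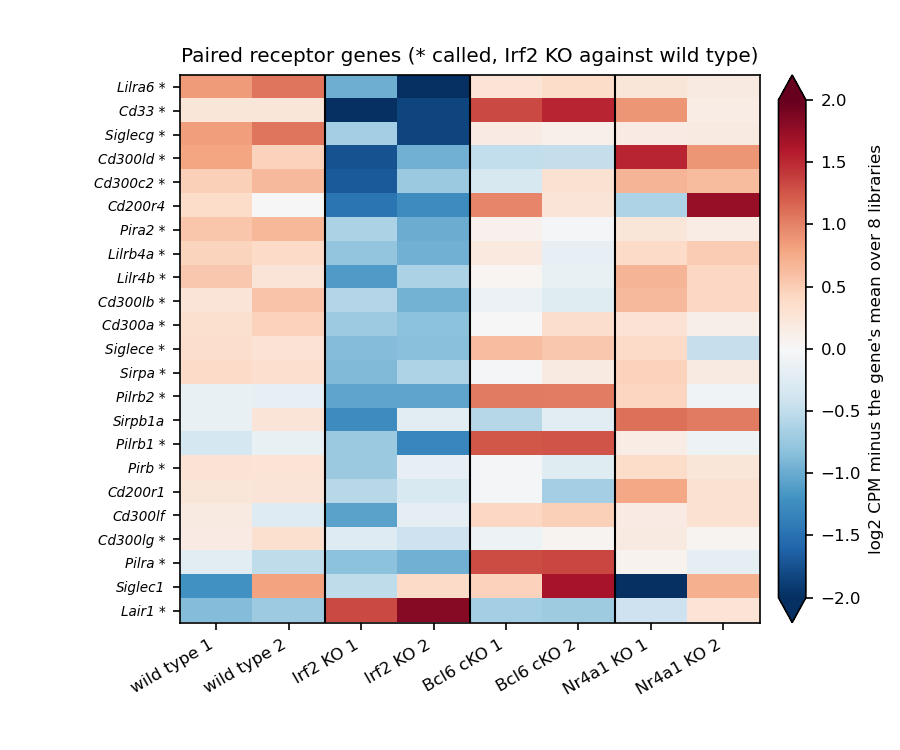
Level of the 23 tested paired receptor genes (rows, called genes starred) in each of the 8 libraries (columns) as log2 CPM minus the gene's own mean over the 8 libraries, red above and blue below that mean, with the colour scale ending at 2 and -2. The 2 Irf2 KO columns are blue for nearly all rows and red for Lair1, and the Bcl6 cKO columns are red for the PILR genes.

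Genes typical of nonclassical monocytes were mostly lower, with 58.3% called lower and 8.33% higher, against 12.3% and 9.26% of all tested genes. Of 24 tested 14 fell and 2 rose (median -0.77), with 10 to 11 falls when 1 compared library was left out. Cx3cr1, the fractalkine receptor that supports survival of patrolling monocytes, fell from 7.27 and 7.82 to 3.72 and 1.73 (-4.82 ± 0.51, adjusted p = 0.00145). Pglyrp1, a peptidoglycan-binding protein, fell from 6.95 and 7.14 to 4.68 and 4.54 (-2.44 ± 0.17, adjusted p = 0.000815). It is also on the list of neutrophil granule and surface genes described below, so the lists share members. Treml4, a receptor of Ly6C-low cells, fell from 3.04 and 3.37 to 0.9 and 1.03 (-2.24 ± 0.23, adjusted p = 0.00135), and Nr4a1 itself from 4.64 and 5.29 to 2.59 and 2.52 (-2.41 ± 0.27, adjusted p = 0.00163). In the Nr4a1 KO libraries Nr4a1, again 1 value per gene, stood at 2.32 and 2.98 (difference from Irf2 KO -0.09 ± 0.27, adjusted p = 0.832). In bulk RNA, fewer cells of a type and less RNA per cell cannot be told apart, which holds for all results here.

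Genes typical of classical monocytes gave 8 falls and 1 rise among 29 tested (median -0.3). These were 27.6% and 3.45%, against 12.3% and 9.26% of all tested genes, so the share of rises was below background. Rises numbered 6 with the 2 groups alone or without either Nr4a1 KO library, and falls numbered 5 to 9 when 1 compared library was left out. Fn1, the matrix protein fibronectin, fell from 10.60 and 10.88 to 8.95 and 8.29 (-2.13 ± 0.3, adjusted p = 0.00325). Cd177, a neutrophil and monocyte surface protein, fell from 8.16 and 8.53 to 6.68 and 6.27 (-1.87 ± 0.22, adjusted p = 0.00183). Lyz2, the macrophage lysozyme, fell from 14.49 and 14.71 to 13.50 and 13.63 (-1.04 ± 0.12, adjusted p = 0.00171), and its neighbour Lyz1 fell from 9.03 and 9.24 to 8.25 and 8.27 (-0.87 ± 0.1, adjusted p = 0.00167). Lyz1 and Lyz2 share much of their sequence, so their reads can be mixed.

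Of 48 myeloid transcription regulators tested 11 fell and 2 rose (median -0.27), or 22.9% and 4.17%. Among all tested genes 12.3% fell and 9.26% rose. Cebpe, which drives the late steps of granulocyte maturation, fell from 4.88 and 4.97 to 2.96 and 3.04 (-1.93 ± 0.19, adjusted p = 0.00131). It was lower still in Nr4a1 KO at 1.25 and 0.93. Nfe2, known from the megakaryocyte and erythroid lineages, fell from 7.74 and 7.45 to 6.47 and 6.49 (-1.11 ± 0.13, adjusted p = 0.00183), and Klf10, a TGF-beta-induced zinc finger protein, fell from 8.1 and 7.95 to 7.29 and 7.01 (-0.87 ± 0.12, adjusted p = 0.00308). Bcl6, named after its values were seen, fell from 4.66 and 4.64 to 3.37 and 3.79 (-1.07 ± 0.16, adjusted p = 0.00382). Lmo2, a blood stem cell cofactor, rose from 4.67 and 4.71 to 5.57 and 5.64 (0.92 ± 0.12, adjusted p = 0.00281). Spi1, the factor PU.1 that defines myeloid cells, was not called (-0.26 ± 0.1, adjusted p = 0.104), nor was Klf4, a factor of monocyte identity (0.05 ± 0.11, adjusted p = 0.792). Among Notch pathway genes 8 of 22 fell and none rose, but 1 fell after the GC and length correction and 1 to 4 with 1 compared library left out.

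Pyroptosis is the lytic death that follows when caspases cleave gasdermin D. Of its list 45.5% were called lower and 13.6% higher, beside 12.3% and 9.26% of all tested genes. Among 22 tested inflammasome and pyroptosis genes 10 fell and 3 rose, with 6 falls under median centring or quantile normalization and 3 to 5 falls when 1 compared library was left out. Gsdmd, the pore-forming gasdermin D (chromosome 15, 75862327 to 75867408), fell from 7.16 and 7.26 to 5.61 and 5.6 (-1.6 ± 0.1, adjusted p = 0.000346). Its replicates differed little, and it was lower than in Nr4a1 KO (-1.28 ± 0.1, adjusted p = 8.48e-05) and in Bcl6 cKO (-1.18 ± 0.1, adjusted p = 0.000965). Ninj1, which ruptures the membrane after the pore forms, fell from 6.6 and 6.6 to 5.0 and 4.98 (-1.61 ± 0.23, adjusted p = 0.00313), and was low in all 3 knockouts, at 4.82 and 5.36 in Bcl6 cKO and 4.57 and 3.94 in Nr4a1 KO. Txnip, a thioredoxin-binding protein linked to Nlrp3, fell from 7.14 and 7.55 to 6.28 and 6.07 (-1.17 ± 0.16, adjusted p = 0.00304). Casp1, the protease that cleaves gasdermin D, moved the other way and rose from 6.33 and 6.46 to 7.92 and 8.01 (1.57 ± 0.21, adjusted p = 0.00282). None of the calls of Gsdmd, Ninj1, Txnip and Casp1 ended with 1 library left out.

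Interferon-linked genes moved both ways, beside 12.3% lower and 9.26% higher among all tested genes. Of 17 tested interferon receptors, JAK-STAT members and feedback inhibitors 6 fell and 0 rose, with 4 to 5 falls when 1 compared library was left out. Ifnar1, a chain of the type I interferon receptor, fell from 6.07 and 6.19 to 5.06 and 5.19 (-1.01 ± 0.14, adjusted p = 0.00283), and Ifngr1, the ligand-binding chain of the interferon gamma receptor, fell from 9.16 and 9.15 to 8.37 and 8.35 (-0.79 ± 0.11, adjusted p = 0.00307). Ifnar1 stood at 5.13 and 4.99 in Nr4a1 KO and 5.34 and 5.62 in Bcl6 cKO, and its differences from Irf2 KO were not called (0.06 ± 0.14, adjusted p = 0.786 and -0.36 ± 0.14, adjusted p = 0.13). Il10rb, shared by the receptors of interleukin 10 and interferon lambda, fell from 5.09 and 5.02 to 4.34 and 4.35 (-0.71 ± 0.12, adjusted p = 0.0054), and Ptpn6, the phosphatase SHP-1, fell from 9.58 and 9.65 to 8.89 and 9.06 (-0.64 ± 0.09, adjusted p = 0.0035). Among 8 interferon regulatory factor genes 3 fell, and 1 to 2 did when 1 compared library was left out. The falls were Irf2 itself, Irf4, whose call was lost with any of 5 libraries omitted (largest adjusted p 0.132), and Irf5. Irf5, which acts below Toll-like receptors, fell from 8.67 and 8.92 to 8.07 and 8.09 (-0.72 ± 0.1, adjusted p = 0.00358). Irf1, the activator that shares the motif of Irf2, was not called, at 5.88 and 6.22 in wild type and 5.44 and 5.88 in Irf2 KO.

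Guanylate-binding proteins (Gbp), GTPases that attack vacuoles of pathogens, gave the steepest interferon-linked rises. Gbp2 stood at 3.93 and 4.25 in wild type and 9.21 and 9.81 in Irf2 KO (5.42 ± 1.12, adjusted p = 0.0125), or 42.8-fold higher. Gbp3 stood at 5.11 and 5.55 in wild type and 8.27 and 8.5 in Irf2 KO (3.05 ± 0.7, adjusted p = 0.0184), and Gbp5 at 0.42 and 1.87 in wild type and 5.07 and 5.54 in Irf2 KO (4.16 ± 1.24, adjusted p = 0.0447). The list of 17 tested GTPases (guanylate-binding proteins with their immunity-related relatives) held 4 that rose and 1 that fell, with a median of 2.64, and in 15 of the 17 both Irf2 KO libraries lay above both wild type libraries, as they did for 3832 of all 12752 tested genes. In 3 of the 17 both Irf2 KO libraries lay above all 6 other libraries, which was so for 14.4% of all tested genes. Directly, 1 of the 17 was called against Nr4a1 KO and 1 against Bcl6 cKO (22.3% and 9.55% of all genes). The list's median level was 4.91 and 5.54 in Irf2 KO and 1.85 and 5.72 in Nr4a1 KO. How many were called against wild type rested on the Nr4a1 KO libraries. These lay far apart for these genes (Gbp2 at 3.59 and 8.18) and enter the spread that all 4 genotypes share. With only the wild type and Irf2 KO libraries 11 rose, and 12 rose without either Nr4a1 KO replicate. Gbp2 then had an adjusted p of 0.000361 in the fit of the 2 groups. Conversely 0 to 1 rose when 1 of the 4 compared libraries was left out of the full fit, and Gbp2 lost its call with either wild type library or Irf2 KO replicate 2 omitted (largest adjusted p 0.0684). Gbp3 lost it with any of these 4 libraries omitted (0.0881 at most), and Gbp5 with any of these or either Bcl6 cKO library omitted (0.181 at most). Gbp4, named after its values were seen, stood at -0.55 and -0.05 in wild type and 4.38 and 5.79 in Irf2 KO and was not called in the full fit (adjusted p = 0.201), but was in the fit of the 2 groups (adjusted p = 0.00354).

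Antiviral genes stimulated by type I interferon were less uniform. Of 63 tested 9 rose and 5 fell (median 0.4), or 14.3% and 7.94%. Among all tested genes 9.26% rose and 12.3% fell, so the share of falls was below that background. The counts became 16 rises and 6 falls with the 2 groups alone, and 7 rises and 5 falls after the GC and length correction. The median was unsteady and ran from 0.04 to 0.72 with 1 compared library left out. Rsad2, the radical enzyme viperin, rose from 3.07 and 4.58 to 7.17 and 7.38 (3.45 ± 0.54, adjusted p = 0.00459), and its neighbour Cmpk2, a nucleotide kinase, rose from 4.51 and 4.84 to 6.56 and 6.49 (1.85 ± 0.23, adjusted p = 0.00236). Neither call ended with any library left out. Both exceeded Nr4a1 KO (3.68 ± 0.54, adjusted p = 0.00203 for Rsad2) and Bcl6 cKO (3.29 ± 0.54, adjusted p = 0.00984 for Rsad2). Ifit1, which binds viral RNA caps, stood at 3.04 and 4.75 in wild type and 7.5 and 7.82 in Irf2 KO (3.76 ± 0.98, adjusted p = 0.0278), and it was not called with any 1 of the wild type, Irf2 KO or Bcl6 cKO libraries omitted (largest adjusted p 0.137). Wild type replicate 2 was above replicate 1 for these genes (Isg15 at 4.6 and 5.98 in wild type and 7.2 and 7.89 in Irf2 KO), and there the gap between the groups was smaller to replicate 2. The other direction was taken by Oas1c, of the oligoadenylate synthetase family, which fell from 0.99 and 2.02 to -1.84 and -0.84 (-2.85 ± 0.51, adjusted p = 0.00735), a call lost with wild type replicate 2 omitted (0.0539). Shisa5, a p53- and interferon-induced membrane protein, fell from 9.71 and 9.98 to 9.0 and 9.15 (-0.77 ± 0.12, adjusted p = 0.00411), and Ifitm6 from 8.5 and 8.66 to 8.03 and 7.94 (-0.59 ± 0.1, adjusted p = 0.00544).

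Trim genes, ubiquitin ligases of which several restrict viruses, rose in 7 of 15 cases and fell in 3. These were 46.7% and 20%, against 9.26% and 12.3% of all tested genes. Rises numbered 3 to 5 with 1 compared library left out, and 1 gene fell with any compared library left out, under either other scaling and after the GC and length correction. Trim6 rose from 0.01 and -0.02 to 2.09 and 2.13 (2.12 ± 0.28, adjusted p = 0.00279), Trim12a from 5.71 and 5.81 to 6.63 and 6.68 (0.89 ± 0.15, adjusted p = 0.0054) and Trim30c from 1.92 and 2.7 to 4.37 and 5.0 (2.37 ± 0.4, adjusted p = 0.00603). These 3 lie in 1 cluster on chromosome 7 and are close copies of their neighbours, so reads may be split among them. In Bcl6 cKO Trim30c stood at 5.03 and 5.18 (difference -0.42 ± 0.4, adjusted p = 0.539). Trim26, in the MHC region of chromosome 17, fell from 4.87 and 5.31 to 3.53 and 3.91 (-1.37 ± 0.22, adjusted p = 0.00485) and was lower than in Nr4a1 KO (-1.21 ± 0.22, adjusted p = 0.00539) and Bcl6 cKO (-1.39 ± 0.22, adjusted p = 0.00806).

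**Figure D4:**
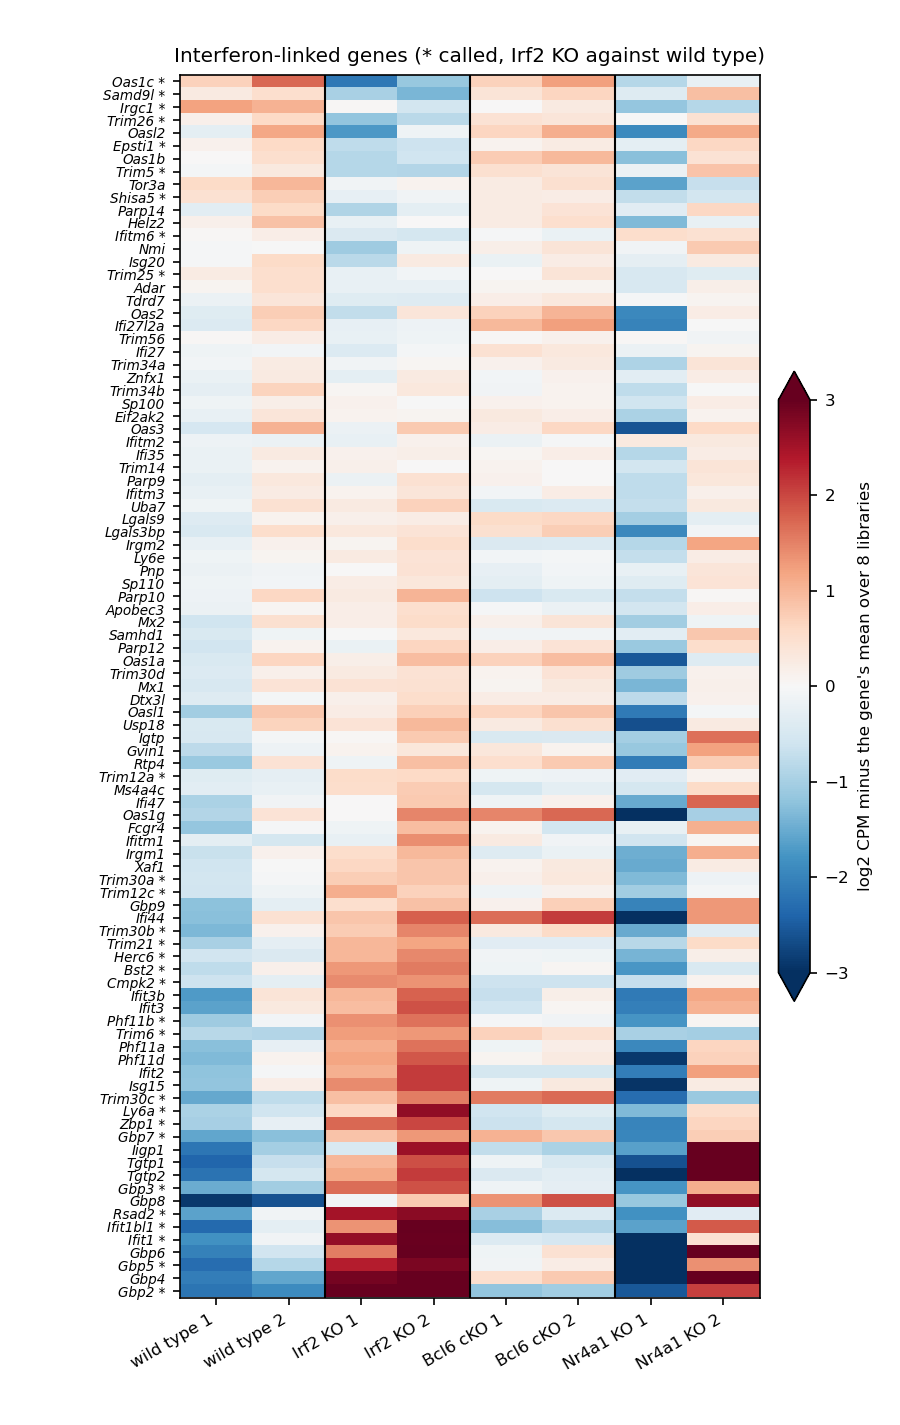
Level of interferon-linked genes (rows; guanylate-binding and immunity-related GTPases, Trim genes and antiviral genes, ordered by log2 fold change, called genes starred) in each library (columns) as log2 CPM minus the gene's mean over the 8 libraries, with the colour scale ending at 3 and -3. The Irf2 KO columns are red in the lower rows, wild type replicate 1 is bluer than replicate 2, and the 2 Nr4a1 KO columns differ widely from each other.

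The stretch of 250 bases before the transcription start (RefSeq, GRCm38.p6) was searched on both strands for the interferon regulatory factor motif GAAANNGAAA, 2 GAAA boxes 2 bases apart, whose reverse complement is TTTCNNTTTC. RefSeq windows matched 8677 of the tested genes by symbol, and 3.56% of these had the motif, as did 2.98% of all 32851 windows of the table. The share was 4.98% among 663 genes called higher and 4.26% among 1222 called lower. It was 3.30% among genes not called. Among larger changes 8 of 29 genes that rose over 4-fold (27.6%) and 8 of 74 that fell over 4-fold (10.8%) had it. Read the other way, 10.7% of the 309 genes with the motif were called higher and 16.8% lower, against 7.53% and 14.0% of the genes without it. Within the antiviral and GTPase lists 27 of 58 matched genes had the motif. These were 9 of the 11 called higher, 1 of the 5 called lower and 17 of the 42 not called. Gbp2, Gbp3, Gbp5, Gbp7, Ifit1, Ifit1bl1 and Rsad2 of these lists had the motif and rose over 4-fold. The share among the rises over 4-fold and the share within these lists therefore rest largely on the same genes.

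Below are the stretches of the 3 named genes with the motif that rose most and the 2 that fell most, 5′ to 3′ on the strand of the gene, with the motif in capitals. The rule took genes with the motif from both directions, so the stretches illustrate the letters and say nothing on direction. Cyp4v3 is among the genes beside Irf2 described above. Gbp2 lies at chr3:142620413-142620662 (plus strand), Gbp5 at chr3:142496684-142496933 (plus) and Ifit1 at chr19:34640639-34640888 (plus). Cyp4v3 lies at chr8:45333164-45333413 (minus) and Oas1c at chr5:120812515-120812764 (minus). Motifs begin 59 bases before the start in Gbp2, 165 in Gbp5, 104 and 85 in Ifit1, 129 in Cyp4v3 and 114 and 108 in Oas1c, where the 2 copies overlap. A match is a description of the letters and does not show binding.
Gbp2: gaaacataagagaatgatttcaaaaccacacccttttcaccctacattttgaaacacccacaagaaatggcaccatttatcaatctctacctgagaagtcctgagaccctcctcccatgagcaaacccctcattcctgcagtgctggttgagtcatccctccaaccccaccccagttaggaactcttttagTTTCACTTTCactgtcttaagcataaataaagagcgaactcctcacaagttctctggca
Gbp5: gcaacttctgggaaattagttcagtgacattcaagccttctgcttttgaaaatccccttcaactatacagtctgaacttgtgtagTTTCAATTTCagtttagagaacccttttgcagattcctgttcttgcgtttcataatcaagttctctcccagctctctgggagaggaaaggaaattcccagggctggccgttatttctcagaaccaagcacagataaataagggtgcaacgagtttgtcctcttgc
Ifit1: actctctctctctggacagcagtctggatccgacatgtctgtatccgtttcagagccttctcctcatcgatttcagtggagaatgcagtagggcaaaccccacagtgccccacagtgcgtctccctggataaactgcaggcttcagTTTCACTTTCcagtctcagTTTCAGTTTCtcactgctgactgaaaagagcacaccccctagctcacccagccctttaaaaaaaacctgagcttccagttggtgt
Cyp4v3: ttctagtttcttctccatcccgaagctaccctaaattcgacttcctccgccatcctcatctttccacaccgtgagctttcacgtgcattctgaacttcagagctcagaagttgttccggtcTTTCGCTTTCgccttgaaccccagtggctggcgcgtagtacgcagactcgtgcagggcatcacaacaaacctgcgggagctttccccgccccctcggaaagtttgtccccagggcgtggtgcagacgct
Oas1c: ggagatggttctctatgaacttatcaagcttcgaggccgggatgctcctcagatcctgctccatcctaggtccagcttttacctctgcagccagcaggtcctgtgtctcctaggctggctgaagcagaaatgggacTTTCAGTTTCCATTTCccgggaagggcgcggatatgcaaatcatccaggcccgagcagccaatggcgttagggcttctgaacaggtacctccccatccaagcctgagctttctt

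Among 27 genes that sense nucleic acids 9 fell and 3 rose, with 4 falls after the GC and length correction and 2 to 10 with 1 compared library left out. Ddx58, the RNA helicase RIG-I, stood at 4.38 and 5.2 in wild type and 2.19 and 3.44 in Irf2 KO (-1.97 ± 0.51, adjusted p = 0.0286), a call lost with wild type replicate 2, Irf2 KO replicate 1 or either Bcl6 cKO library omitted (largest adjusted p 0.154) or without a variance trend (0.0666). Pld4, a nuclease of endolysosomes, fell from 10.98 and 11.13 to 10.47 and 10.48 (-0.58 ± 0.1, adjusted p = 0.00599), which was lost after the GC and length correction (0.0688). Rnaseh2b, a subunit of ribonuclease H2, rose from 6.76 and 6.61 to 7.29 and 7.28 (0.6 ± 0.11, adjusted p = 0.00707). Of 26 genes of MHC class I presentation 3 rose and 2 fell, shares near those of all tested genes (9.26% and 12.3%). Rises numbered 9 with the 2 groups alone, 10 without either Nr4a1 KO library and 1 to 3 when 1 compared library was left out. B2m, the common light chain, was not called at 10.94 and 11.18 in wild type and 11.18 and 11.72 in Irf2 KO. Calr, the chaperone calreticulin, rose from 7.75 and 7.74 to 8.46 and 8.89 (0.93 ± 0.16, adjusted p = 0.0059). Of 17 genes of class II presentation 4 fell, against none after the GC and length correction, 0 to 2 with 1 compared library left out and 8 without either Nr4a1 KO library. Ciita, the class II master regulator, was not called in Irf2 KO (-1.73 ± 0.79, adjusted p = 0.153).

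Receptors for chemoattractants and cytokines gave more falls than rises, beside 12.3% lower and 9.26% higher among all tested genes. Of 20 chemoattractant receptors 8 fell and 1 rose (median -1.09), with 4 falls under either other scaling or the GC and length correction and 1 to 7 with 1 compared library left out, but 13 without Nr4a1 KO replicate 1 and 14 without replicate 2. Of 25 cytokine receptors and members of the interleukin 15 axis 9 fell and 1 rose, and 8 to 9 fell with 1 compared library left out. Csf3r, the receptor for granulocyte colony-stimulating factor, fell from 7.38 and 7.48 to 6.12 and 6.18 (-1.28 ± 0.09, adjusted p = 0.000928). Il10ra, the ligand-binding chain for interleukin 10, fell from 6.45 and 6.71 to 5.17 and 5.0 (-1.49 ± 0.14, adjusted p = 0.00113), and Il17ra from 7.03 and 7.31 to 6.14 and 6.21 (-1.0 ± 0.12, adjusted p = 0.00219). Csf1r, the receptor that keeps monocytes alive, fell by a smaller amount, from 8.79 and 9.2 to 8.23 and 8.26 (-0.75 ± 0.13, adjusted p = 0.0076). Tnfrsf1b, the second receptor of tumour necrosis factor, fell from 7.42 and 7.91 to 6.5 and 6.52 (-1.15 ± 0.15, adjusted p = 0.00252) while its differences from Nr4a1 KO (-0.27 ± 0.15, adjusted p = 0.235) and Bcl6 cKO (-0.27 ± 0.15, adjusted p = 0.282) were not called. Ccl6, a chemokine of myeloid cells, fell from 9.53 and 9.67 to 8.41 and 8.01 (-1.39 ± 0.15, adjusted p = 0.0015), while in Nr4a1 KO it stood at 10.54 and 10.23.

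Of 24 Toll-like receptor pathway genes 6 fell and 2 rose, the rises below the 9.26% of all tested genes. Falls numbered 2 to 5 with 1 compared library left out, and the 2 groups alone gave 5 rises and 5 falls. Tlr2, which recognises bacterial lipoproteins, fell from 6.08 and 5.87 to 4.4 and 5.05 (-1.25 ± 0.21, adjusted p = 0.00553). Tlr4, the receptor for lipopolysaccharide, rose from 3.45 and 3.56 to 4.77 and 5.3 (1.53 ± 0.21, adjusted p = 0.00307), and Cd14, which hands lipopolysaccharide to Tlr4, stood at 5.58 and 5.29 in wild type and 4.08 and 4.75 in Irf2 KO (-1.02 ± 0.23, adjusted p = 0.0158). Cd14 was not called with wild type replicate 1 or Irf2 KO replicate 1 omitted (largest adjusted p 0.0823), whereas Tlr2 and Tlr4 were called whichever library was omitted. Downstream, 9 of 21 NF-kB subunits and inhibitors fell and none rose, with 4 falls after the GC and length correction and 5 to 6 with 1 compared library left out. Nfkb2, a precursor subunit of the noncanonical branch, fell from 4.2 and 4.1 to 2.62 and 2.77 (-1.46 ± 0.18, adjusted p = 0.00236), and Ikbkb, a kinase of the canonical branch, from 8.05 and 8.25 to 7.45 and 7.31 (-0.77 ± 0.1, adjusted p = 0.00238). In the interleukin 1 family 3 of 9 fell (2 to 4 with 1 compared library left out). Il1rn, the receptor antagonist, fell from 3.55 and 3.75 to 2.04 and 1.69 (-1.78 ± 0.21, adjusted p = 0.00193), and Il1rap, the accessory chain of the receptor, from 2.93 and 2.55 to 1.22 and 1.46 (-1.4 ± 0.24, adjusted p = 0.00631). Mif, the macrophage migration inhibitory factor, rose from 6.54 and 6.64 to 7.74 and 8.06 (1.31 ± 0.12, adjusted p = 0.00113), while Tnf was not called at 2.31 and 1.83 in wild type and 1.4 and 1.81 in Irf2 KO.

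Calls among genes for digestion and uptake were mostly falls, where 12.3% of all tested genes fell and 9.26% rose. Of 47 lysosomal genes 20 fell and none rose, with 12 falls after the GC and length correction and 10 to 15 with 1 compared library left out. Arsb, which cleaves sulfate from glycosaminoglycans, fell from 5.13 and 5.02 to 2.79 and 2.15 (-2.61 ± 0.22, adjusted p = 0.00104), and Plbd1, a phospholipase-like protein of granules, from 7.65 and 6.98 to 5.25 and 5.06 (-2.16 ± 0.21, adjusted p = 0.00115). Lamp1, the most familiar lysosomal membrane protein, was not called at 7.52 and 7.75 in wild type and 7.64 and 7.73 in Irf2 KO. Cathepsins and their inhibitors gave 6 falls and 3 rises among 17, with 1 to 4 rises when 1 compared library was left out. Ctsb fell from 10.71 and 10.69 to 9.97 and 10.13 (-0.65 ± 0.09, adjusted p = 0.00304). Of 17 scavenger receptors 6 fell and none rose, among them Cd68, a macrophage sialomucin, which fell from 9.45 and 9.46 to 8.6 and 8.61 (-0.85 ± 0.08, adjusted p = 0.00115). Of 19 C-type lectin receptors 7 fell and 1 rose, with 3 to 8 falls when 1 compared library was left out. Clec4a2, an inhibitory lectin, fell from 8.22 and 8.06 to 6.95 and 6.98 (-1.17 ± 0.15, adjusted p = 0.00236), and Clec12a, a receptor for uric acid crystals, from 8.17 and 8.19 to 7.56 and 7.43 (-0.68 ± 0.1, adjusted p = 0.00339). Syk, the kinase below ITAM receptors, fell from 7.34 and 7.46 to 6.64 and 6.84 (-0.66 ± 0.11, adjusted p = 0.00657), as 1 of 7 falls with no rise among 21 Fc receptor and ITAM genes. Falls in that list numbered 3 to 10 with 1 compared library left out.

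Falls also outnumbered rises for lipid mediators, complement and adhesion, against 12.3% lower and 9.26% higher among all tested genes. Of 22 prostaglandin and leukotriene genes 11 fell and 1 rose, and 7 to 8 fell with 1 compared library left out. Alox5, the 5-lipoxygenase that starts leukotriene synthesis, fell from 4.45 and 4.78 to 3.26 and 2.89 (-1.55 ± 0.18, adjusted p = 0.00197), and Ptger2, a receptor for prostaglandin E2, from 4.51 and 4.45 to 2.51 and 2.48 (-1.98 ± 0.19, adjusted p = 0.00115). Of 19 complement and coagulation genes 9 fell and 1 rose, with 6 to 9 falls when 1 compared library was left out. C3, the central complement component, fell from 9.33 and 9.61 to 8.55 and 8.45 (-0.97 ± 0.11, adjusted p = 0.00153), F5, coagulation factor V, from 5.16 and 4.78 to 3.39 and 2.88 (-1.83 ± 0.28, adjusted p = 0.00459), and Plaur, the urokinase receptor, from 8.75 and 8.73 to 7.76 and 7.8 (-0.96 ± 0.08, adjusted p = 0.00104). Among 21 integrin and selectin ligand genes 8 fell and none rose, with 3 to 7 falls with 1 compared library left out. Itgb2, the beta chain common to leukocyte integrins, fell from 9.83 and 10.10 to 8.82 and 8.91 (-1.1 ± 0.14, adjusted p = 0.00238), and its partner Itgal from 7.35 and 7.52 to 6.57 and 6.45 (-0.92 ± 0.12, adjusted p = 0.00281). Immediate early genes gave 8 falls and no rise among 27, with 3 to 7 falls when 1 compared library was left out, 5 under either other scaling and 4 after the GC and length correction. Btg2, an antiproliferative gene, fell from 7.96 and 8.14 to 6.57 and 6.81 (-1.36 ± 0.14, adjusted p = 0.00149) and Dusp6, a phosphatase of ERK, from 5.49 and 5.92 to 4.53 and 3.57 (-1.65 ± 0.29, adjusted p = 0.00653), while Fos was not called at 9.18 and 9.1 in wild type and 8.9 and 9.21 in Irf2 KO.

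Early granule genes were split in direction, and the calls among late granule genes were falls. The shares over all tested genes were 12.3% lower and 9.26% higher. Primary (azurophil) granule proteins are made in early myeloid progenitors and secondary granule proteins in later neutrophil precursors. Of 20 primary granule and early myeloid genes 8 rose and 5 fell, with 6 to 8 rises when 1 compared library was left out. Ctsg, the protease cathepsin G, rose from 6.0 and 6.11 to 7.54 and 7.94 (1.69 ± 0.14, adjusted p = 0.00104). Prtn3, proteinase 3, rose from 8.98 and 9.12 to 10.29 and 10.82 (1.5 ± 0.17, adjusted p = 0.00167), and Mpo, myeloperoxidase, from 8.28 and 8.44 to 9.3 and 9.3 (0.94 ± 0.11, adjusted p = 0.00167). All 3 were above both other knockouts in the direct tests, for example Prtn3 against Nr4a1 KO (1.8 ± 0.17, adjusted p = 0.000232). Fcnb, a ficolin of the same list, fell from 7.98 and 7.72 to 6.74 and 6.28 (-1.34 ± 0.18, adjusted p = 0.00304). Of 22 genes of secondary granules and the neutrophil surface 9 fell and none rose (median -1.29). Falls numbered 5 to 12 and the median ran from -1.85 to -0.75 with 1 compared library left out, and 14 fell without either Nr4a1 KO library. S100a8, a calcium-binding alarmin, stood at 9.99 and 9.47 in wild type and 7.29 and 8.78 in Irf2 KO (-1.69 ± 0.41, adjusted p = 0.0214), and omitting either wild type library, Irf2 KO replicate 1 (largest adjusted p 0.106) or the variance trend (0.0589) removed its call. Mmp9, the gelatinase of tertiary granules, fell from 3.6 and 3.82 to 1.19 and 2.09 (-2.07 ± 0.3, adjusted p = 0.00358).

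Markers of other cells moved with these lists, and their part in the results was not tested. The neutrophil-defining markers, 12 genes in the table, summed to 1836 and 1561 CPM in wild type and 375 and 885 CPM in Irf2 KO. Both Irf2 KO libraries were below wild type, replicate 1 further than replicate 2, and 6 of 11 tested markers fell, against 12.3% of all tested genes. That number was 2 to 9 with 1 compared library left out and 10 without either Nr4a1 KO library. Ly6g, the sorting marker of neutrophils, was near 1 CPM throughout and was not called, at 0.06 and 0.9 in wild type and -0.67 and 1.09 in Irf2 KO. Stem and progenitor markers, 8 genes, summed to 146 and 127 CPM in wild type and 249 and 318 CPM in Irf2 KO, with 2 rises and 1 fall among 7 tested. Most of each sum was Cdk6, whose levels are given below. The median log2 fold change of the list was -0.04, with 3 of the 7 above 0. There Cdk6 and Ly6a rose, the latter not called with any of 5 libraries omitted (largest adjusted p 0.205), and Cd34, a progenitor surface protein, fell from 3.32 and 3.53 to 2.21 and 1.44 (-1.6 ± 0.28, adjusted p = 0.00712). Tissue macrophage markers, 10 genes, summed to 278 and 297 CPM in wild type and 168 and 184 CPM in Irf2 KO. Adgre1, the antigen F4/80 that monocytes express too, fell from 7.11 and 7.18 to 6.09 and 5.89 (-1.16 ± 0.11, adjusted p = 0.00113). Basophil, mast cell and eosinophil markers, 6 genes, summed to 31.4 and 31.8 CPM in wild type and 7.88 and 17.8 CPM in Irf2 KO. None of the neutrophil, progenitor, macrophage or basophil markers in the table was at 0 reads in these 4 libraries.

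Some low-level lymphoid and erythroid transcripts fell steeply. Vpreb3, a partner of the pre-B cell receptor, fell from 2.57 and 2.46 to -2.21 and -4.45 (-5.84 ± 0.66, adjusted p = 0.00167), and Cd79a, a signalling chain of the B cell receptor, from 3.22 and 3.3 to -0.03 and -1.28 (-3.91 ± 0.45, adjusted p = 0.00171). Ly6d, a marker of lymphoid progenitors and plasmacytoid dendritic cells, had 348 and 278 reads in wild type and 5 and 1 in Irf2 KO (-6.68 ± 0.63, adjusted p = 0.00115). The 9 plasmacytoid dendritic cell markers in the table, Ly6d among them, summed to 616 and 548 CPM in wild type and 708 and 725 CPM in Irf2 KO. Of 8 tested 3 fell and 1, Bst2, rose, and the median log2 fold change was -0.63. Bst2, also on the antiviral list, was the only tested marker above 0, so the higher sum rests on it. Vpreb3, Cd79a and Ly6d were near 2 to 3 log2 CPM in wild type, and 3 of 5 tested B cell markers fell. The summed level of the 10 B cell markers in the table did not follow them, at 698 and 789 CPM in wild type and 735 and 790 CPM in Irf2 KO, and Ighm alone stood at 9.24 and 9.45 in wild type and 9.43 and 9.55 in Irf2 KO. At most 1 of the 10 was at 0 reads in a library. Igkc, the kappa light chain, stood at 3.86 and 3.35 in wild type and -0.19 and 0.84 in Irf2 KO (-3.28 ± 0.7, adjusted p = 0.0136), and it was not called with either wild type library or Irf2 KO replicate 1 omitted (largest adjusted p 0.0802), by voom (adjusted p = 0.0650) or in the authors' deposited table (adjusted p = 0.0617). Hba-a1, an alpha globin, fell from 3.03 and 3.11 to -0.72 and 0.07 (-3.39 ± 0.34, adjusted p = 0.00124). Of the 6 erythroid markers 4 fell and 1 rose, with a median log2 fold change of -2.38. They summed to 37.4 and 37.7 CPM in wild type and 24.5 and 34.8 CPM in Irf2 KO. Tfrc, the transferrin receptor on that list, rose from 3.29 and 3.0 to 4.39 and 4.81 (1.46 ± 0.2, adjusted p = 0.00307). Most of each Irf2 KO sum was Tfrc, so the sum does not follow the other markers.

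Cell cycle lists were called about as often as all tested genes or less often. In the cyclin list, which holds Ccnd2, 16% rose and 8% fell, against 9.26% and 12.3% of all tested genes. Of 25 cyclin, CDK, CDK inhibitor and E2F genes 4 rose and 2 fell, against 7 and 2 under median centring, 8 and 0 after the GC and length correction and 2 to 4 rises with 1 compared library left out. Cdk6, the kinase partner of D-type cyclins, rose from 6.83 and 6.55 to 7.73 and 7.79 (1.06 ± 0.18, adjusted p = 0.00633). Ccnd1 was not called, at 0.99 and 0.75 in wild type and 1.69 and 0.54 in Irf2 KO, and Ccnd3, another D-type cyclin, fell from 8.01 and 7.32 to 6.57 and 6.76 (-1.0 ± 0.21, adjusted p = 0.0129), a call lost with Irf2 KO replicate 1 omitted (0.0725) and after the GC and length correction (0.0891). Of 42 DNA replication genes 6 rose and none fell, near the background of 9.26% for rises, with 0 to 4 rises when 1 compared library was left out and 11 under median centring. Of 40 mitosis genes 2 fell and none rose, and the sign of the list's median changed with median centring. Cdc20, the activator of the anaphase complex, fell from 6.73 and 6.72 to 5.84 and 5.86 (-0.88 ± 0.14, adjusted p = 0.00513). Against Nr4a1 KO 26 of the 42 replication genes and 19 of the 40 mitosis genes were higher in Irf2 KO and none lower, where 1583 of all 12752 genes were higher.

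Calls among genes of protein synthesis, folding and respiration were mostly small rises, where 9.26% of all tested genes rose and 12.3% fell. Of 87 cytosolic ribosomal protein genes 56 rose and none fell, with a median log2 fold change of 0.38. Rises numbered 21 to 28 when 1 compared library was left out, 41 after the GC and length correction and 73 under median centring. Rpl14 rose from 10.42 and 10.42 to 11.06 and 11.06 (0.64 ± 0.08, adjusted p = 0.00219) and Rps27l, a p53-induced paralogue, from 7.88 and 7.76 to 8.73 and 8.87 (0.98 ± 0.1, adjusted p = 0.00135). Rpl13 was uneven within wild type, at 10.97 and 9.13 in wild type and 8.55 and 8.59 in Irf2 KO, and was not called (adjusted p = 0.0508). Pseudogenes of ribosomal protein genes rose too, 64 of 146 with none lower, and since such copies share sequence with their parents these are not independent counts. Of all 1383 processed pseudogenes tested 23.2% rose and 0.434% fell, beside 7.78% and 14.4% of 10307 protein-coding genes. Mitochondrial ribosomal protein genes gave 32 rises and 1 fall among 75 (2 to 16 rises with 1 compared library left out). Nuclear-encoded respiratory chain subunits gave 38 rises and 3 falls among 89, with 23 rises after the GC and length correction and 14 to 23 with 1 compared library left out. Ndufa5, a subunit of complex I, rose from 6.74 and 6.66 to 7.61 and 7.64 (0.92 ± 0.09, adjusted p = 0.00115). The 13 genes of the mitochondrial genome gave 4 rises (0 to 2 with 1 compared library left out), none of which was left after that correction, where the sign of their median changed to -0.07.

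Of 38 proteasome genes 13 rose and none fell, with 2 to 7 rises when 1 compared library was left out. Psma5, a subunit of the core ring, rose from 8.06 and 8.16 to 9.0 and 9.35 (1.06 ± 0.17, adjusted p = 0.00544), and Psma8, a variant known from testis, from 0.15 and 0.37 to 3.15 and 2.73 (2.68 ± 0.44, adjusted p = 0.00544). Heat shock and unfolded protein response genes gave 10 rises and 2 falls among 28, with 5 to 8 rises and no fall when 1 compared library was left out. Hspe1 and Hspd1, which form the mitochondrial chaperonin, rose from 6.69 and 6.57 to 7.79 and 8.17 (1.35 ± 0.17, adjusted p = 0.00229) and from 7.39 and 7.2 to 8.27 and 8.55 (1.11 ± 0.13, adjusted p = 0.00192). Hsp90aa1, an inducible cytosolic chaperone, rose from 7.7 and 7.4 to 8.57 and 8.76 (1.12 ± 0.14, adjusted p = 0.00236). Hspa1a, the inducible Hsp70, varied too widely to be called, at 1.37 and -0.57 in wild type and 3.5 and 5.03 in Irf2 KO.

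Metabolic lists were mixed, beside 12.3% lower and 9.26% higher among all tested genes. Rises in the iron (11.5%) and glycolysis (11.8%) lists were near that background. Slc11a1, a metal pump of phagosomes, fell from 6.64 and 6.87 to 4.76 and 4.84 (-1.95 ± 0.16, adjusted p = 0.00104), in a list of iron handling genes with 6 falls and 3 rises among 26 (1 to 2 rises with 1 compared library left out). Cybb, a subunit of the phagocyte oxidase, fell from 10.75 and 10.81 to 10.23 and 10.29 (-0.52 ± 0.08, adjusted p = 0.00494). The NADPH oxidase and antioxidant list as a whole had 5 falls and 6 rises among 32 (1 to 3 rises with 1 compared library left out). Pfkfb4, a regulator of glycolysis, fell from 5.98 and 6.24 to 4.72 and 4.52 (-1.49 ± 0.14, adjusted p = 0.00115), while Slc16a1, a lactate transporter, rose from 2.36 and 1.9 to 3.57 and 4.33 (1.82 ± 0.31, adjusted p = 0.00633). Glycolysis and pentose phosphate genes gave 4 rises and 7 falls among 34 (1 to 5 and 1 to 4 with 1 compared library left out), and their median changed sign with the scaling. Of 38 cholesterol and LXR target genes 4 rose and 4 fell, near the background in both directions, and 1 to 3 rose with 1 compared library left out. Fasn, the fatty acid synthase, rose from 4.13 and 4.0 to 4.86 and 4.99 (0.86 ± 0.15, adjusted p = 0.00641), and Pltp, which transfers phospholipids between lipoproteins, fell from 0.92 and 1.58 to -3.14 and -1.56 (-3.6 ± 0.64, adjusted p = 0.00731). Hmgcs1, an enzyme of cholesterol synthesis, was not called at 4.42 and 4.67 in wild type and 4.61 and 4.71 in Irf2 KO.

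**Figure D5:**
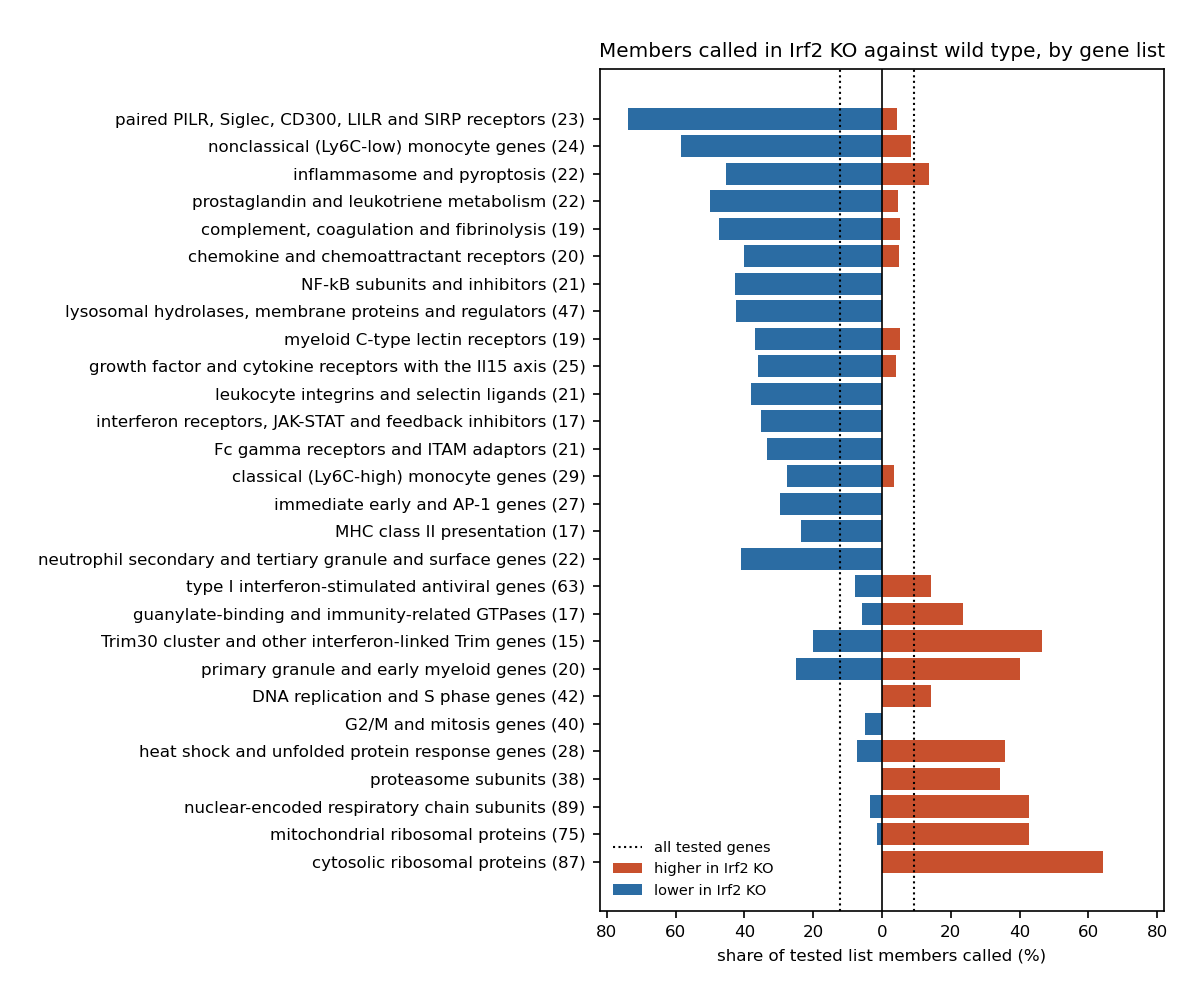
Share of the tested members of 28 gene lists (y axis, number tested in brackets) that were called higher (orange, right) or lower (blue, left) in Irf2 KO against wild type, in percent (x axis). Dotted lines give the shares among all tested genes, 12.3% lower and 9.26% higher, and bars beyond them are longest for paired receptors on the left and cytosolic ribosomal proteins on the right.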

How the data were processed

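RNA from sorted monocytes was made into libraries with a SMARTer Ultra Low kit from 10 ng of total RNA and sequenced as paired reads, per the labels' protocols. Per the submitters' processing notes, reads were handled with STAR, Salmon, bcl2fastq, limma and featureCounts of Subread on the mm10 build. The authors deposited log2 CPM values for 8 libraries, beside their own log2 fold changes and adjusted p-values (the authors' deposited table). The log2 CPM values, as deposited, gave back whole reads for 100% of entries (within 0.01), with 0.5 reads added before the logarithm.

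Repeated gene identifiers were dropped (45 of 13789 rows). Genes with a mean of at least 0 log2 CPM over the 8 libraries entered a limma model (version 3.58.1, R 4.3.3) of 4 genotype means with a trend of the prior variance, giving 4 residual and 4.657 prior degrees of freedom. P-values are Benjamini-Hochberg adjusted over 12752 genes. Tables were made with Python 3.11.15, pandas 2.3.3 and numpy 2.4.6, and the fit was tested on simulated data. Gene positions are GENCODE M21 (GRCm38), and promoter windows are RefSeq's for GRCm38.p6.

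The genes, lists and comparisons were chosen with earlier results of these data known. Named genes are Irf2, the 12 largest rises and falls called with groups that do not overlap and a mean of at least 2 log2 CPM, up to 5 called members of each list by smallest p with its first member where not called, and called genes within 2 megabases of Irf2. Alternatives were no variance trend, other filters on low values, quantile normalization, median centring, the 2 groups alone, voom, a GC and length correction, a replicate block and omission of each library.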

Additional observations from a re-analysis of the deposited data

How the results depend on the processing

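The 2755 genes called against wild type became 1967 without a trend of the prior variance, 2756 with no filter on low values, 2645 with a filter at 4 CPM, 2618 with quantile normalization, 2808 with median centring, 2530 with the 2 groups alone, 2731 with voom and 1864 after the GC and length correction, where 839 fell in place of 1574. The authors' deposited table held 2929. With 1 library left out, the counts were 1076 to 3190 (356 to 1356 higher and 686 to 1834 lower). Against Nr4a1 KO they were 1460 to 2705 (795 to 1518 higher and 665 to 1187 lower), and 1770 with the 2 groups alone (688 lower). Against Bcl6 cKO they were 138 to 1647 (36 to 718 higher and 100 to 929 lower), with 537 (184 higher, 353 lower) without a variance trend and 1947 (873 higher) with the 2 groups alone. Omitting an Nr4a1 KO library raised the count against wild type to 3157 or 3190, while omitting any other library lowered it. The cause was not tested. Of 257 named genes that were called 143 stayed called whichever library was omitted. Lyz2 held the same rank in all 8 libraries, so quantile normalization gave it 1 value and no test.

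Deviations of libraries with the same replicate number correlated with r between -0.003 and 0.18 over the pairs of genotypes. This range does not settle whether the samples were paired, since a shared effect may touch only some genes. In the GTPase list, replicate 1 had a lower median deviation from the gene's mean than replicate 2 in every genotype. The medians were -1.555 and -0.57 in wild type and 0.54 and 1.305 in Irf2 KO. They were -0.12 and 0.09 in Bcl6 cKO and -1.76 and 1.66 in Nr4a1 KO. The antiviral list had the same order, and the paired receptor list did not. The cause was not tested. With the replicate block 2716 genes were called against wild type, 2868 against Nr4a1 KO and 1186 against Bcl6 cKO.

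Some genes that were not called in the main comparison changed sign. Under median centring the log2 fold change was 0.018 for Fos, 0.029 for Ccnb1 and 0.039 for Ddx3y. Quantile normalization gave 0.011 for Mrpl10 and 0.033 for Ddx3y. The GC and length correction gave 0.014 for Mrpl10, 0.056 for Spi1, 0.093 for Fos and -0.072 for mt-Nd1. With 1 library left out, ranges that crossed 0 were -0.0054 to 0.22 for Mcm2, -0.12 to 0.19 for Pecam1, -0.24 to 0.071 for Fos, -1.76 to 0.078 for Mcpt8, -1.15 to 0.61 for Ly6g, -0.068 to 0.17 for Lamp1, -1.54 to 0.026 for C1qb, -0.16 to 0.016 for Ccnb1, -0.60 to 0.11 for Bcl2, -0.27 to 0.15 for Ddx3y, -0.33 to 0.82 for Ccnd1 and -0.012 to 0.23 for Hmgcs1. The cause was not tested. Depth limits genes near 1 CPM, which rest on 47.9 to 61.8 reads per library.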
